A study of Mus musculus with 16 samples.

Results

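Enzymes that remove superoxide and peroxides were measured as transcripts in mouse ventricles after 6 months on 1 of 4 diets. The set holds 10 genes of the 17737 in the deposited table, taken by symbol and not by their values: the superoxide dismutases Sod1, Sod2 and Sod3, catalase (Cat), the glutathione peroxidases Gpx1, Gpx3 and Gpx4, and the peroxiredoxins Prdx2, Prdx3 and Prdx5. All 10 were found and all 10 passed the filter on low counts, with at least 89 counts in every library. The study, on diet in cardiac aging and fibrosis, sequenced poly-A RNA from the lower part of the ventricles of 16 male C57BL/6 mice, 1 animal per library and 4 animals per diet. The mice were 6 weeks old when the diets began, and were assigned to them at random, and the labels name no transgene or operation.

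The groups are called by the diet in the sample titles. Chow is a standard rodent diet, NIA and UW are 2 diets made for primates, and mNIA is the NIA diet changed so that its sucrose and fat match those of the UW diet. A second label on each sample, a letter code, does not spell the diet in its title: CC stands beside chow, MNC beside NIA, NC beside UW and UC beside mNIA. Every value given for NIA, UW or mNIA therefore rests on the titles, and the codes leave the identity of those 3 groups unsettled. The mean of the 3 primate formulas against chow does not depend on which formula group is which.

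Superoxide forms when single electrons leak from the respiratory chain or are handed to oxygen by oxidases, and a dismutase turns it into hydrogen peroxide. Sod1 acts in the cytosol and the space between the mitochondrial membranes, Sod2 in the mitochondrial matrix and Sod3 outside the cell. Hydrogen peroxide is then removed by catalase in peroxisomes, by glutathione peroxidases at the cost of glutathione, and by peroxiredoxins at the cost of thioredoxin. Heart muscle is dense in mitochondria, so the matrix enzymes Sod2 and Prdx3 and the membrane-protecting Gpx4 are studied there for their part in ischemia and heart failure.

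Gpx1, Gpx3 and Gpx4 are selenoproteins: a TGA codon inside their reading frame, a stop codon elsewhere, is read as selenocysteine, the residue that reacts with the peroxide. The coding strand of the principal GENCODE transcript is shown around that codon because it is what sets these 3 members apart in sequence. The in-frame TGA is in capitals, with 15 bases on each side.
Gpx1, codon 47: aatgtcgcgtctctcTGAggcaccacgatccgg
Gpx3, codon 73: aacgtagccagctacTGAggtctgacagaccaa
Gpx4, codon 73: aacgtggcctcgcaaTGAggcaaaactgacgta
The other 7 members have 0 in-frame stop codons before the last codon of their principal transcript, counting codons from 1 at the first ATG.

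Promoter windows of 250 bases before the RefSeq transcription start (GRCm38.p6) were found for 9 of the 10 members, all but Sod3. Sod2, Cat and Prdx3 are shown because the same heart, chow replicate 3, was the lowest of the 16 for all of them. Sod1 is shown because its window was the only one of the 9 with the core of the antioxidant response element, the element bound by the oxidative stress factor Nrf2. Sequences run 5′ to 3′ on the strand of the gene, and capitals mark matches, on either strand, to any of 6 motifs. These were the core of the antioxidant response element, spelled TGACNNNGC, the GC box that Sp1 family factors bind, spelled GGGCGG, and the CCAAT box. The other motifs were the core bound by ETS factors, spelled CCGGAAG, the core bound by the nuclear respiratory factor NRF1, spelled GCATGCGC, and the core bound by estrogen-related receptors (ERR), spelled AAGGTCA.
Sod2, chr17:13007589-13007838, plus strand: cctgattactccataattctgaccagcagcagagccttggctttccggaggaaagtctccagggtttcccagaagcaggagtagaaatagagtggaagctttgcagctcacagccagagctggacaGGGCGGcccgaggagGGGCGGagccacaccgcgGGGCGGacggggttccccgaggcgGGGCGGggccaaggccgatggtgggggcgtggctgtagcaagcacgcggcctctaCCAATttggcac
Cat, chr2:103485154-103485403, minus strand: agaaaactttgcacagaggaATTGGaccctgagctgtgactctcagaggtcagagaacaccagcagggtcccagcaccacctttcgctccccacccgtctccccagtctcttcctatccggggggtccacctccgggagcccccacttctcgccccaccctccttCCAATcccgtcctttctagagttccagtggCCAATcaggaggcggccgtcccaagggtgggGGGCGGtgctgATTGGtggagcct
Prdx3, chr19:60874539-60874788, minus strand: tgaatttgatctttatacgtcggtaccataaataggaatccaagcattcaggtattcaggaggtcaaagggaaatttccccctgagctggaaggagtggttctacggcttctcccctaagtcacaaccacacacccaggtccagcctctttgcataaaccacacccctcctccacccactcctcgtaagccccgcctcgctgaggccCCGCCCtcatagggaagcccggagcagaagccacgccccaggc
Sod1, chr16:90220512-90220761, plus strand: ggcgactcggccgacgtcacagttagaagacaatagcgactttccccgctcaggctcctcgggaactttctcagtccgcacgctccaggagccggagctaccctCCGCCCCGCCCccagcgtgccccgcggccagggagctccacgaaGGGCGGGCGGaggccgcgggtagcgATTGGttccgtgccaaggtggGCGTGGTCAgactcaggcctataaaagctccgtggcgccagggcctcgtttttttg
To count motifs, 1 window was taken for each member, the one nearest the start of its principal transcript (Gpx4 has 4 windows), and all RefSeq windows, several for some genes, served as background. GC boxes were found in the windows of 7 of the 9 members, against 32.7% of all 32851 RefSeq windows of that length, and CCAAT boxes in 5 of the 9, against 33.8%. The antioxidant response element core was found in 1 of 9 (Sod1) against 10.2% of all windows, the ETS core in 1 of 9 (Prdx5) against 6.91%, the NRF1 core in 1 of 9 (Gpx4) against 2.26%, and the ERR core in 0 of 9 against 4.08%. These are matches of letters within 250 bases and say nothing about whether a factor is bound. Sod2, Cat and Prdx3 shared the GC box, and Prdx3 lacked the CCAAT box found in the windows of Sod2 and Cat.

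Library totals ran from 2278223 counts (NIA replicate 4) to 63005361 (NIA replicate 2). The other 14 libraries lay between, with at most 6583503 counts (UW replicate 4), so NIA replicate 2 stood alone in depth. The typical spread of a gene between animals on 1 diet (edgeR's common dispersion, taken as its square root) was 0.28 of its level, and counting error was smaller than that for each member. In limma-voom, 4 libraries received quality weights under 0.5: NIA replicate 4 (0.16), chow replicate 3 (0.23), NIA replicate 1 (0.30) and mNIA replicate 2 (0.36). In NIA replicate 4 the level of a gene relative to its mean fell with transcript length (Spearman's rho of -0.50 over 13260 genes, which are not independent replicates), whereas in UW replicate 4 it rose (0.46). Cardiomyocyte markers summed to between 53989 and 128774 CPM (counts scaled to the library's total), and 4 of the 5 skeletal muscle and 3 of the 6 adipocyte markers listed were in the table and summed to at most 2.68 and 0.67 CPM.

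Relative abundance is given as CPM scaled by TMM, which makes libraries of different depth comparable for 1 gene. To compare genes, CPM was divided by the length of the principal transcript in kilobases. On that scale Gpx4, which reduces lipid peroxides within membranes, had the highest mean level, 673 ± 522 CPM per kilobase (SD, n = 16), followed by Sod1 at 502 ± 136. The other means were 281 ± 67.0 for Prdx5, 182 ± 70.4 for Prdx2, 154 ± 49.0 for Prdx3, 153 ± 44.2 for Gpx3, 129 ± 57.3 for Cat, 110 ± 31.3 for Sod2, 64.5 ± 40.7 for Gpx1 and 11.1 ± 2.98 for Sod3. The order held in all 16 libraries for Sod1 above Prdx5 and for Gpx1 above Sod3, and in 15 for Prdx5 above Prdx2. Between Gpx4 and Sod1 it held in 12 libraries, between Prdx2 and Prdx3 in 13, between Gpx3 and Cat in 11, between Cat and Sod2 in 11, between Sod2 and Gpx1 in 13, and between Prdx3 and Gpx3 in 8. Each of those 6 pairs of neighbours was thus in the other order in at least 3 hearts, and all but Sod2 and Gpx1 differed in mean by less than the larger of their SDs. The principal transcripts of Sod2 (5861 bases) and Sod3 (3738 bases) reach past the ends of the deposited gene models, so their per-length levels may be too low.

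Within each member the mean was highest in NIA, in 10 of 10 genes, yet no neighbouring pair of diets was separate: the ranges of CPM overlapped in 30 of 30 neighbouring pairs. For Prdx3 the means were 238 CPM in NIA and 237 in mNIA. The share of all tested genes with their highest mean in NIA was not computed, so the count is not shown to be particular to the members. Members whose 2 groups did not overlap numbered 0 in each of the 6 pairs of diets. The background of genes higher and lower without overlap was 1.32% and 1.91% in NIA minus chow, 1.97% and 2.48% in UW minus chow, and 0.897% and 1.26% in mNIA minus chow. It was 3.29% and 3.06% in UW minus NIA, 1.46% and 0.882% in mNIA minus NIA, and 0.77% and 0.665% in mNIA minus UW. The maximum of the 16 hearts fell in NIA replicate 4 for 6 members, in NIA replicate 1 for 3 and in NIA replicate 3 for 1. NIA replicate 4 held the maximum of 23.8% of all 13381 tested genes. The minimum fell in chow replicate 3 for Sod2, Cat and Prdx3, and that library held the minimum of 19.8% of all tested genes. NIA replicate 1 also held the minimum for 2 members, Gpx4 and Prdx5.

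**Figure D1:**
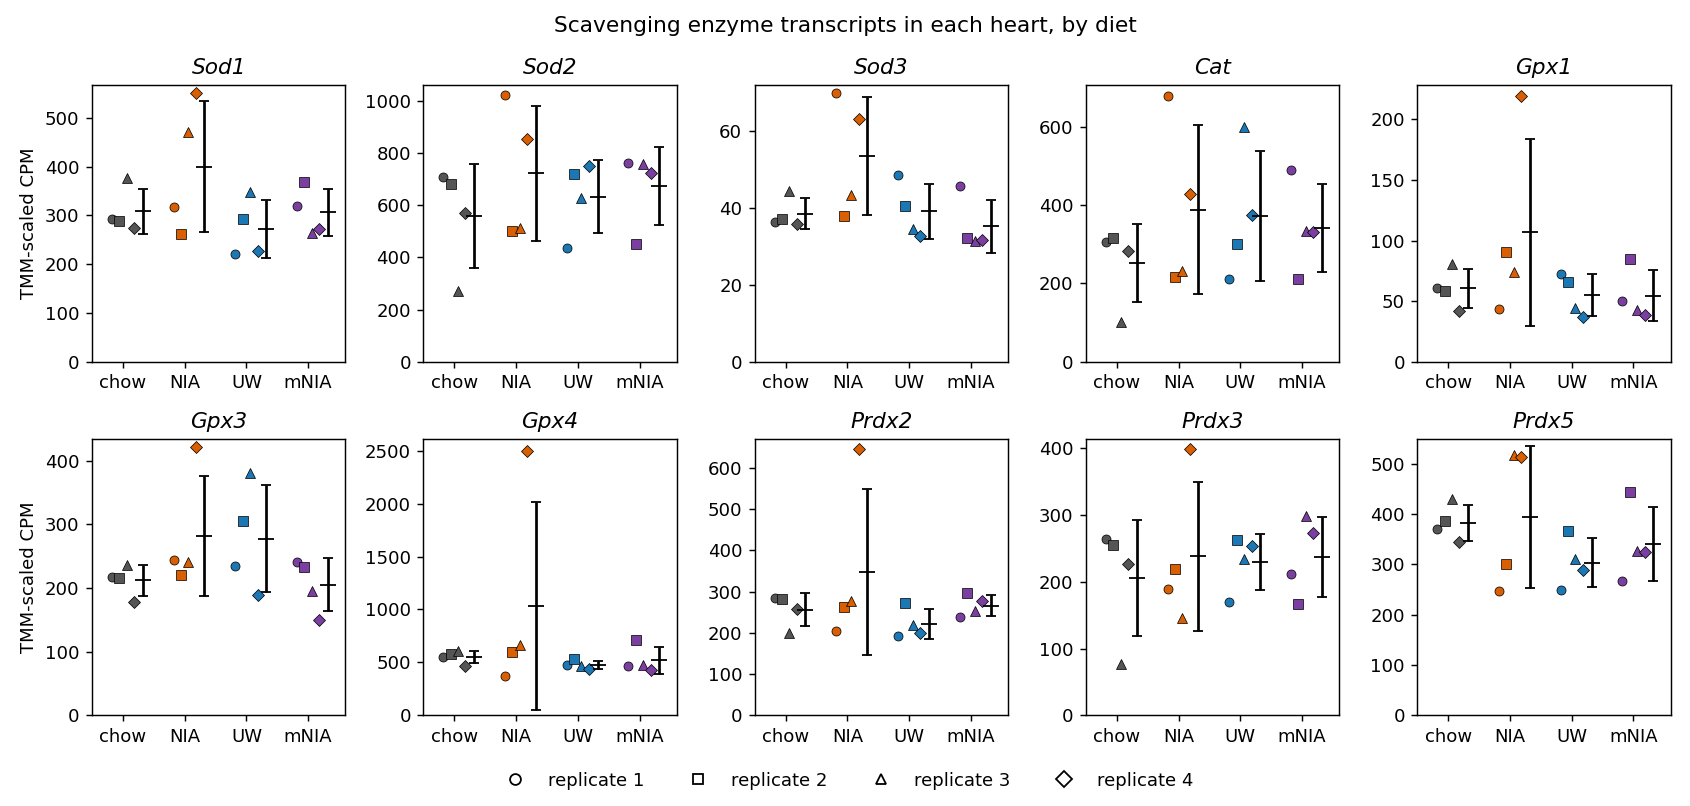
TMM-scaled CPM of the 10 scavenging enzyme transcripts (y axis) in each of the 16 hearts, by diet (x axis). Symbols give the replicate number, and the bars beside them the mean and SD of 4 animals; NIA replicate 4 (diamond) stands far above the other 15 hearts for Gpx4, at 2493 CPM.

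The question asked of each member was whether its transcript differed between the diets. With edgeR's quasi-likelihood test and Benjamini-Hochberg adjustment over 13381 genes, 0 of 10 members had an adjusted p under 0.05 in any of the 6 pairs of diets, in the mean of the primate formulas against chow, or jointly over all 4 diets. The background was as sparse: 0% of all tested genes passed in each of these comparisons except mNIA minus chow, where 0.00747% did (1 gene). At an unadjusted p under 0.05 the members numbered 2 in NIA minus chow (Sod3 and Gpx4; 8.7% of all genes), 4 in UW minus NIA (Sod1, Gpx1, Gpx4 and Prdx2; 13.9%) and 3 in mNIA minus NIA (Sod3, Gpx1 and Gpx4; 8.91%). They numbered 0 in UW minus chow (2.35% of all genes), mNIA minus chow (1.38%), mNIA minus UW (0.986%) and the mean of the formulas against chow (2.19%), and 1 in the joint test (Gpx4; 6.88%). All of the pairwise member differences with an unadjusted p under 0.05 had NIA as the higher group. By DESeq2, 0 members passed in any comparison, and under 2 of the other settings 1 member passed in mNIA minus NIA, as given with Gpx1.

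In NIA minus chow the fitted log2 fold change was above 0 for 10 of 10 members with a median of 0.42, against 48.6% of all tested genes and a median of -0.01. Leaving out NIA replicate 4, 6 of 10 were above 0 with a median of 0.17, against 51% of all genes. The count was 10 of 10 without NIA replicate 1 (median 0.44) and 9 of 10 without chow replicate 3 (0.41). It was 9 of 10 with offsets for each library's trend with transcript length (0.43), and 6 of 10 without the 4 libraries of low weight (0.13). In UW minus NIA 0 of 10 were above 0 (49.7% of all genes). With the length offsets it was 2 of 10, with 1 member at an unadjusted p under 0.05, and without NIA replicate 4 it was 3 of 10. In mNIA minus NIA 1 of 10 was above 0 (49.1%), and 2 of 10 without NIA replicate 4. These 3 comparisons share the 4 NIA hearts and so are not separate evidence. In UW minus chow 5 of 10 were above 0 (49.2%), in mNIA minus chow 4 of 10 (51%) and in mNIA minus UW 6 of 10 (54.5%). For the mean of the primate formulas minus chow the count was 9 of 10 with a median of 0.18 (50.4% of all genes), 6 of 10 with a median of 0.03 without NIA replicate 4, and 5 of 10 without the 4 libraries of low weight.

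**Figure D2:**
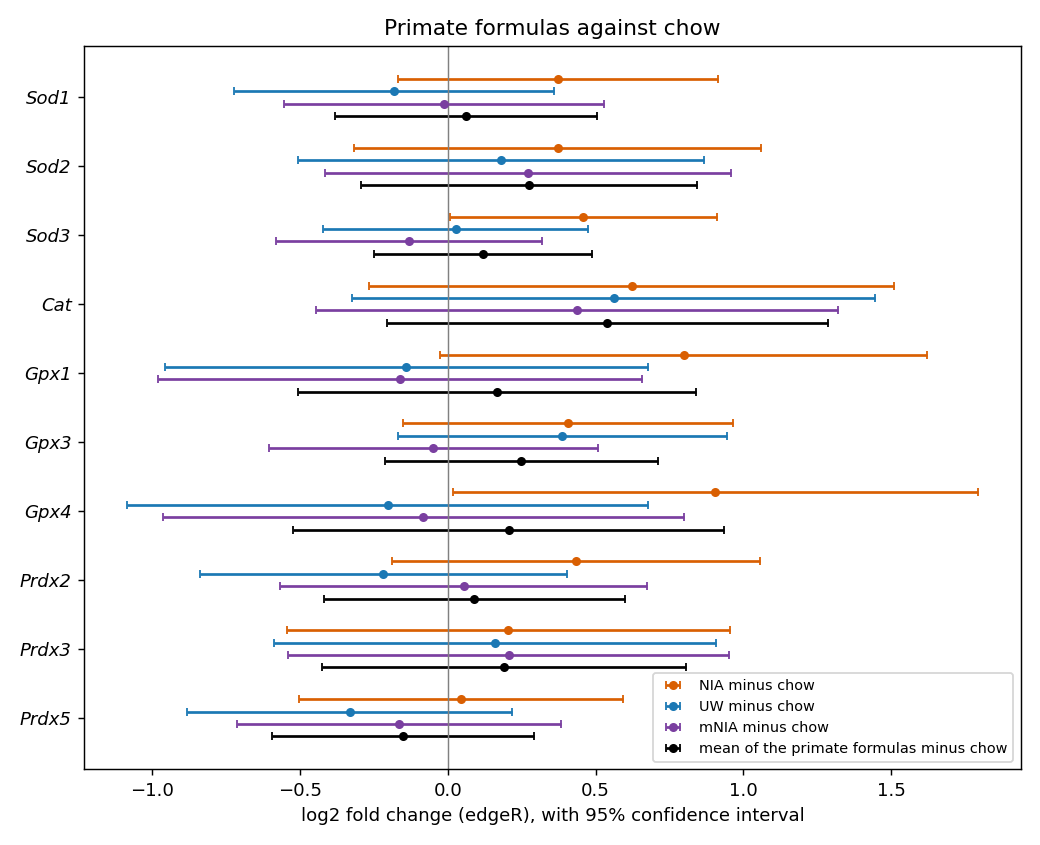
Fitted log2 fold change (x axis) of each member (y axis) against chow, for each primate formula and for their mean, with approximate 95% confidence intervals derived from edgeR's F statistics. The intervals for the mean of the formulas all include 0, and the largest estimates lie in NIA for Gpx4 (0.90) and Gpx1 (0.80).

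For each member below, the pair of diets with the smallest unadjusted p of the 6 is given, which by construction leans to large differences, and the mean of the primate formulas minus chow is given beside it. Adjusted p-values are over all tested genes. Lower RNA per cell and fewer cells of a type cannot be told apart in RNA from whole ventricle.

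The cytosolic dismutase Sod1 (chr16:90220762-90226333, mm10, plus strand) measured 294, 288, 377 and 275 CPM in the chow hearts and 316, 262, 471 and 550.5 in the NIA hearts, in order of replicate number. In UW hearts it measured 221, 293, 348 and 227, and in mNIA hearts 319.7, 368, 264 and 273. NIA replicates 3 and 4 were above the other 14 hearts, and NIA replicate 2 was below the chow hearts, so the NIA hearts lay on both sides of the chow hearts. The largest pairwise difference was UW minus NIA, with means of 272 ± 60.2 and 400.1 ± 134 CPM (SD, n = 4 each) and a log2 fold change of -0.55 (SE 0.26, 95% interval -1.10 to -0.01, adjusted p 0.349). With offsets that remove the trend with transcript length in each library, that difference was -0.01. The mean of the formulas minus chow was 0.06 (SE 0.21, interval -0.38 to 0.50, adjusted p 0.975). The end of the locus overlaps Scaf4 on the opposite strand, and whether the counting used strand is not given in the sources used here.

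Sod2 (chr17:13007839-13018119, mm10, plus strand), the dismutase of the mitochondrial matrix, reached 707, 682, 272 and 571 CPM on chow and 1023, 501, 513 and 855 on NIA. On UW the values were 436, 718, 627 and 751, and on mNIA 762, 451, 757 and 723. Chow replicate 3 was the lowest of the 16 hearts and NIA replicate 1 the highest, and the other 3 chow hearts lay among the UW and mNIA hearts. NIA minus chow gave means of 723 ± 259 and 558 ± 199 CPM and a log2 fold change of 0.37 (SE 0.33, interval -0.32 to 1.06, adjusted p 0.788). Without the 4 libraries of low weight, which include both of those hearts, the same difference was -0.39. Against chow, the mean of the formulas gave 0.27 (SE 0.27, interval -0.30 to 0.84, adjusted p 0.938), and -0.089 without the 4 libraries.

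The secreted dismutase Sod3 (chr5:52363804-52369738, mm10, plus strand), which binds the matrix around vessels, was the member with the lowest level per length. Its CPM was 36.3, 37.2, 44.6 and 36.0 in chow and 70.0, 38.0, 43.3 and 63.3 in NIA. It was 48.8, 40.5, 34.7 and 32.8 in UW and 45.7, 32.2, 31.5 and 31.7 in mNIA. NIA replicates 1 and 4 lay above the other 14 hearts, and 3 of the 4 mNIA hearts lay below all 4 NIA hearts. In mNIA minus NIA, with means of 35.3 ± 6.96 and 53.7 ± 15.4 CPM, the log2 fold change was -0.59 (SE 0.22, interval -1.04 to -0.13, adjusted p 0.549). It was -0.17 without the 4 libraries of low weight. For the mean of the formulas minus chow the value was 0.12 (SE 0.18, interval -0.25 to 0.49, adjusted p 0.94).

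Catalase (Cat, chr2:103453904-103485153, mm10, minus strand), the peroxisomal enzyme that splits hydrogen peroxide without spending glutathione or thioredoxin, had 306, 316, 103 and 282 CPM in the chow hearts. NIA hearts had 677, 215, 232 and 429, UW hearts 210.1, 302, 599.7 and 375 and mNIA hearts 488, 212, 334 and 331. Chow replicate 3, at 103 CPM, was below the other 15 hearts. Each formula group had at least 1 heart below the other 3 chow hearts and at least 2 above all 4. NIA minus chow, with means of 388 ± 216 and 252 ± 100.5 CPM, gave a log2 fold change of 0.62 (SE 0.42, interval -0.27 to 1.51, adjusted p 0.704). Without the 4 libraries of low weight it was -0.46. Cat had the largest of the 10 differences for the mean of the formulas minus chow, 0.54 (SE 0.35, interval -0.20 to 1.28, adjusted p 0.938), which was 0.28 without chow replicate 3 and 0.06 without the 4 libraries.

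Gpx1 (chr9:108339080-108340344, mm10, plus strand), the glutathione peroxidase of cytosol and mitochondria, is abundant in red cells as well as in tissue. Chow hearts had 61.1, 58.6, 81.1 and 41.7 CPM and NIA hearts 43.2, 90.6, 74.3 and 219. The UW hearts had 72.6, 66.2, 44.2 and 36.8 and the mNIA hearts 50.5, 85.1, 42.9 and 38.8. NIA replicate 4, at 219 CPM, stood far above the next heart, at 90.6, and NIA replicate 1 was among the lower hearts. In mNIA minus NIA, with means of 54.3 ± 21.1 and 107 ± 77.4 CPM, the log2 fold change was -0.96 (SE 0.39, interval -1.79 to -0.13, adjusted p 0.549), and -0.38 without NIA replicate 4. Gpx1 was the 1 member with an adjusted p under 0.05 under any setting: limma-voom with quality weights gave -0.85 (adjusted p 0.0431), where 14.8% of all genes passed. Leaving out the 4 libraries of low weight, edgeR gave -0.92 (adjusted p 0.0198), where 23.1% of all genes passed, with 2 NIA and 3 mNIA hearts left. Those 4 libraries were chosen by weights computed from the spread of these same hearts. The adjusted p after leaving them out is therefore not separate evidence. The mean of the formulas minus chow was 0.17 (SE 0.32, interval -0.51 to 0.84, adjusted p 0.95), and -0.021 without NIA replicate 4.

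Gpx3 (chr11:54902854-54910387, mm10, plus strand) encodes the glutathione peroxidase that is secreted into plasma. Values were 218, 215, 236 and 179 CPM for chow and 244, 219.7, 241 and 421 for NIA. They were 234, 306, 379.9 and 189 for UW and 241, 232, 196 and 150.4 for mNIA. NIA replicate 4 and UW replicate 3 were the highest, UW replicate 2 was the third, and the other 13 hearts lay between 150.4 and 244 CPM. The pair with the smallest p was mNIA minus NIA (205 ± 41.3 against 282 ± 93.6 CPM), with a log2 fold change of -0.45 (SE 0.27, interval -1.01 to 0.10, adjusted p 0.631), and -0.20 without NIA replicate 4. Against chow, the mean of the formulas gave 0.25 (SE 0.22, interval -0.21 to 0.71, adjusted p 0.938).

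Gpx4 (chr10:80047166-80056439, mm10, plus strand) reduces phospholipid hydroperoxides in membranes and is the enzyme that holds back ferroptosis. In chow it had 553, 579, 604 and 467 CPM and in NIA 374, 602, 662 and 2493. In UW it had 478, 529, 470.4 and 434 and in mNIA 464, 712, 476 and 428. A single heart, NIA replicate 4, stood at 2493 CPM, and the other 15 hearts lay between 374 and 712. UW minus NIA, with means of 478 ± 39.2 and 1033 ± 981 CPM, gave a log2 fold change of -1.11 (SE 0.43, interval -2.00 to -0.22, adjusted p 0.257). Without NIA replicate 4 it was -0.17, and with the length offsets -0.56. For the mean of the formulas minus chow the value was 0.21 (SE 0.35, interval -0.52 to 0.93, adjusted p 0.945), and -0.096 without NIA replicate 4. The principal transcript is 959 bases long, 15 of the 16 libraries have a count for Gpx4 that is not whole, and the annotation names 1 pseudogene copy (Gpx4-ps2), so its values are uncertain where reads were shared.

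Prdx2 (chr8:84969622-84974810, mm10, plus strand), a cytosolic peroxiredoxin that is also among the most abundant proteins of red cells, had 286, 283, 199 and 259 CPM in the chow hearts and 204, 263, 278 and 646 in the NIA hearts. UW values were 192, 272, 220.4 and 199 and mNIA values 238, 298, 252 and 278. Apart from NIA replicate 4, at 646 CPM, every heart lay between 192 and 298 CPM. The log2 fold change for UW minus NIA, with means of 221 ± 36.2 and 348 ± 202 CPM, was -0.65 (SE 0.30, interval -1.28 to -0.03, adjusted p 0.336), and -0.15 without NIA replicate 4. The mean of the formulas minus chow was 0.09 (SE 0.24, interval -0.42 to 0.60, adjusted p 0.966), and -0.072 without that heart. The 2 ends of the locus overlap Rnaseh2a and Junb on the opposite strand.

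Prdx3 (chr19:60864066-60874538, mm10, minus strand) is the peroxiredoxin of the mitochondrial matrix and works beside Sod2. It measured 264, 255, 77.1 and 226 CPM on chow and 189, 219.6, 145 and 398 on NIA. The UW hearts gave 169.8, 262, 234 and 254, and the mNIA hearts 212, 166, 298 and 273. As for Sod2 and Cat, chow replicate 3 was the lowest heart, and the other 3 chow hearts lay among those on the formulas. No pair came close to the threshold: mNIA minus chow, with means of 237 ± 59.7 and 206 ± 87.3 CPM, gave 0.21 (SE 0.36, interval -0.54 to 0.95, adjusted p 0.983), and -0.067 without chow replicate 3. Against chow, the mean of the formulas gave 0.19 (SE 0.29, interval -0.43 to 0.81, adjusted p 0.94), and -0.084 without it.

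Prdx5 (chr19:6906697-6910106, mm10, minus strand), found in mitochondria, peroxisomes and cytosol, varied least of the 10 members, with the highest heart 2.09-fold above the lowest. The chow hearts had 369, 385, 429 and 345 CPM and the NIA hearts 248, 300.3, 517 and 513. Hearts on UW had 249, 365, 311 and 288, and those on mNIA 267, 444, 327 and 325. NIA held both the highest and the lowest heart. UW minus NIA, with means of 303 ± 48.5 and 395 ± 141 CPM, gave a log2 fold change of -0.38 (SE 0.26, interval -0.93 to 0.17, adjusted p 0.552). Prdx5 was the only member below 0 for the mean of the formulas minus chow, at -0.15 (SE 0.21, interval -0.59 to 0.29, adjusted p 0.939). Its locus overlaps Trmt112 on the opposite strand, and its count is not whole in 16 of 16 libraries.

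**Figure D3:**
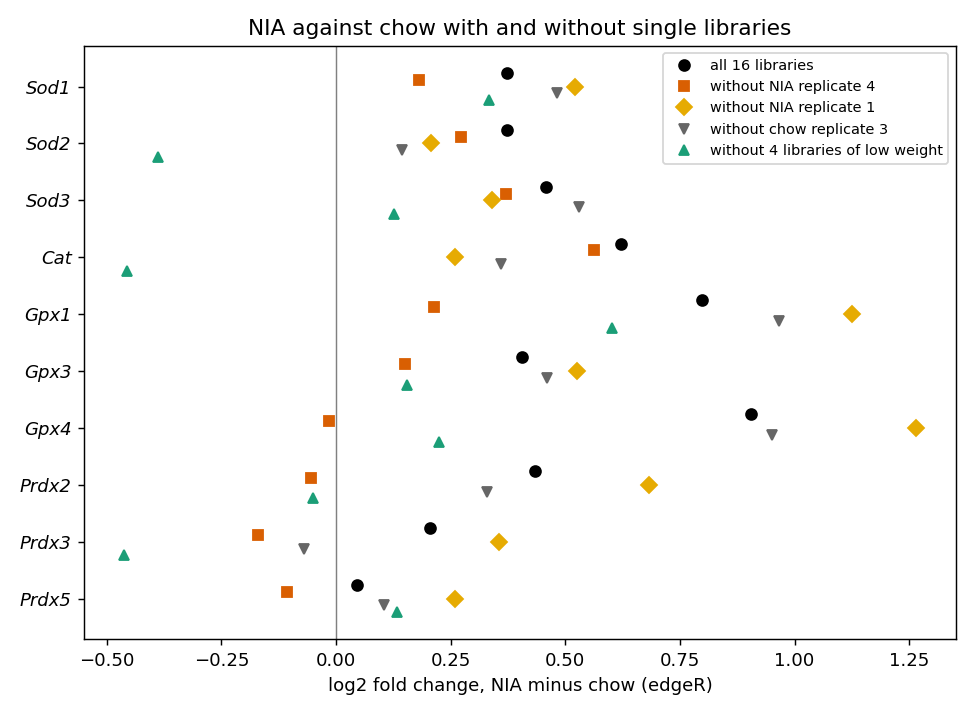
Log2 fold change of each member for NIA minus chow (x axis) with all 16 libraries and after leaving out single libraries or the 4 libraries of low weight. Gpx4 moves from 0.90 to -0.01 without NIA replicate 4, and Cat and Sod2 move to -0.46 and -0.39 without the 4 libraries.

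The 95% intervals show what differences these 16 hearts leave possible. For the mean of the formulas against chow, the upper bounds ran from 0.29 (Prdx5) to 1.28 (Cat) on the log2 scale and the lower bounds from -0.59 (Prdx5) to -0.20 (Cat). A p above the threshold does not show that the diets left these transcripts alike.

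Pearson's r and Spearman's rho of log2 CPM over the 16 hearts were computed for the 45 pairs of members, with permutation p-values (100000 permutations) adjusted over the 45 pairs. An adjusted p under 0.05 was reached by 14 pairs on r, by 6 on rho and by 5 on both. The share of pairs of other tested genes that would pass was not computed. All genes share the depth and length trends of the libraries, so these counts do not set the members apart from other genes. Sod2 and Cat had r = 0.89 (adjusted p 0.00045) and rho = 0.88 (adjusted p 0.00113), and r = 0.78 without the 2 hearts farthest from the median of Sod2, chow replicate 3 and UW replicate 1. Gpx1 and Gpx4 had r = 0.91 (adjusted p 6e-04) and rho = 0.89 (adjusted p 0.00045), and r = 0.83 without NIA replicate 4 and UW replicate 4. With each diet's mean removed r was 0.89 for both pairs. Gpx4 and Prdx5 had r = 0.70 (adjusted p 6e-04) and rho = 0.80 (adjusted p 0.00645), and r = 0.77 without NIA replicate 4 and mNIA replicate 2. Prdx2 and Prdx5 had r = 0.66 (adjusted p 0.0112) and rho = 0.70 (adjusted p 0.0369), and r = 0.49 without NIA replicate 4 and UW replicate 1. Sod1 and Gpx3 had r = 0.63 (adjusted p 0.0398) and rho = 0.66 (adjusted p 0.04995), and r = 0.46 without NIA replicates 3 and 4. Among pairs that passed on r alone, Sod2 and Prdx3 had r = 0.80 (adjusted p 0.00684) but rho = 0.61 (adjusted p 0.0726), and r = 0.52 without chow replicate 3 and UW replicate 1. Gpx4 and Prdx2 had r = 0.89 (adjusted p 0.00977) but rho = 0.54 (adjusted p 0.142), and r = 0.43 without NIA replicate 4 and mNIA replicate 2, so that relation rested on those hearts.

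Levels of gene lists in the same hearts were set beside the members, in a family of 80 relations. A list's level in a heart was the median, over its genes, of log2 CPM relative to each gene's mean. Citric acid cycle enzymes, the matrix pathway that feeds the respiratory chain, followed Sod2 with r = 0.93 (permutation p 1e-05, the smallest the permutations can give; adjusted p 2e-04) and rho = 0.84 (p 0.00011; adjusted p 0.00176), and r = 0.83 without chow replicate 3 and UW replicate 1. For Cat and the same enzymes r was 0.86 (adjusted p 2e-04), rho 0.84 (adjusted p 0.00176) and r without those hearts 0.71. Prdx3 followed the peroxisome proteins, with r = 0.94 (adjusted p 2e-04), rho = 0.90 (adjusted p 8e-04) and r = 0.89 without chow replicate 3 and NIA replicate 4. So did Sod2 (r = 0.81, adjusted p 0.00311; rho = 0.69, adjusted p 0.0207) and Cat (r = 0.70, adjusted p 0.0282; rho = 0.70, adjusted p 0.017). Prdx3 also followed the citric acid cycle enzymes on r (0.84, adjusted p 0.0023; rho = 0.60, adjusted p 0.0543). On rho alone, Gpx1 (-0.74, adjusted p 0.0114) and Gpx4 (-0.73, adjusted p 0.0133) went against those enzymes.

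Cell type markers moved with Sod2, Cat and Prdx3 too. Sod2 was higher where cardiomyocyte markers were higher (r = 0.83, adjusted p 0.00206; rho = 0.90, adjusted p 0.00133; r = 0.87 without NIA replicate 4 and UW replicate 1) and was lower where endothelial markers were higher (r = -0.91, adjusted p 2e-04; rho = -0.95, adjusted p 8e-04; r = -0.89 without chow replicate 3 and mNIA replicate 2). Cat against the endothelial markers gave r = -0.81 (adjusted p 0.00206), rho = -0.84 (adjusted p 0.00187) and r = -0.71 without the same hearts. Prdx3 against them gave r = -0.83 (adjusted p 0.00064), rho = -0.66 (adjusted p 0.031) and r = -0.77 without those hearts. Cat with the cardiomyocyte markers gave r = 0.73 (adjusted p 0.014) and rho = 0.75 (adjusted p 0.0114). On rho alone, Cat went against the macrophage markers (-0.74, adjusted p 0.0114) and Gpx1 went with them (0.62, adjusted p 0.0461). Chow replicate 3, the lowest heart for Sod2, Cat and Prdx3, stood at -1.21 for the citric acid cycle enzymes, -0.43 for cardiomyocyte markers, 0.77 for endothelial markers and 1.08 for erythrocyte markers, all as log2 levels relative to the mean heart. NIA replicate 4, the highest heart for 6 members, stood at 0.85 for cardiomyocyte markers and -1.25 for smooth muscle and pericyte markers. These levels are medians over a list's genes. Summed, the 10 smooth muscle and pericyte markers ran from 1273 to 1784 CPM in NIA and from 1376 to 1668 in chow. The sum thus did not fall as far as the median did in NIA replicate 4, the library with the length trend of -0.50. The part of cell makeup in the members' differences was not tested.

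Red cells carry Gpx1 and Prdx2 in large amounts, so erythrocyte markers were set beside the members. All 10 erythrocyte markers were in the table, and their summed level ran from 2450 to 6246 CPM in chow, 1953 to 7383 in NIA, 1208 to 3445 in UW and 1589 to 4609 in mNIA. In UW minus chow 0 of 10 had a fitted value above 0 (49.2% of all tested genes), with a median of -0.88. At an unadjusted p under 0.05 were 6 of the 10 (2.35% of all genes), and 0 passed adjustment. In UW minus NIA 0 of 10 were above 0 (49.7%), with a median of -0.91 and 6 of 10 at that p (13.9%). In mNIA minus NIA 1 of 10 was above 0 (49.1%), with a median of -0.60 and 1 of 10 at that p (8.91%). The count was 0 of 10 in mNIA minus chow (51%) and in the mean of the formulas minus chow (50.4%). It was 6 of 10 in NIA minus chow (48.6%) and 10 of 10 in mNIA minus UW (54.5%). Gpx1 against these markers gave r = 0.58 (adjusted p 0.0819) and rho = 0.74 (adjusted p 0.0114), and r = 0.54 without NIA replicate 2 and chow replicate 3. Gpx4 gave r = 0.35 (adjusted p 0.37) and rho = 0.73 (adjusted p 0.0118), with r = 0.42 without those hearts. Prdx2 gave r = 0.20 (adjusted p 0.689) and rho = 0.39 (adjusted p 0.322), with r = 0.43 without them. Cat went the other way, with r = -0.73 (adjusted p 0.00992), rho = -0.75 (adjusted p 0.0114) and r = -0.60 without those hearts, and so did Sod2 (r = -0.68, adjusted p 0.0197; rho = -0.64, adjusted p 0.038; r = -0.53 without them). The part of blood in the members' values was not tested.

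**Figure D4:**
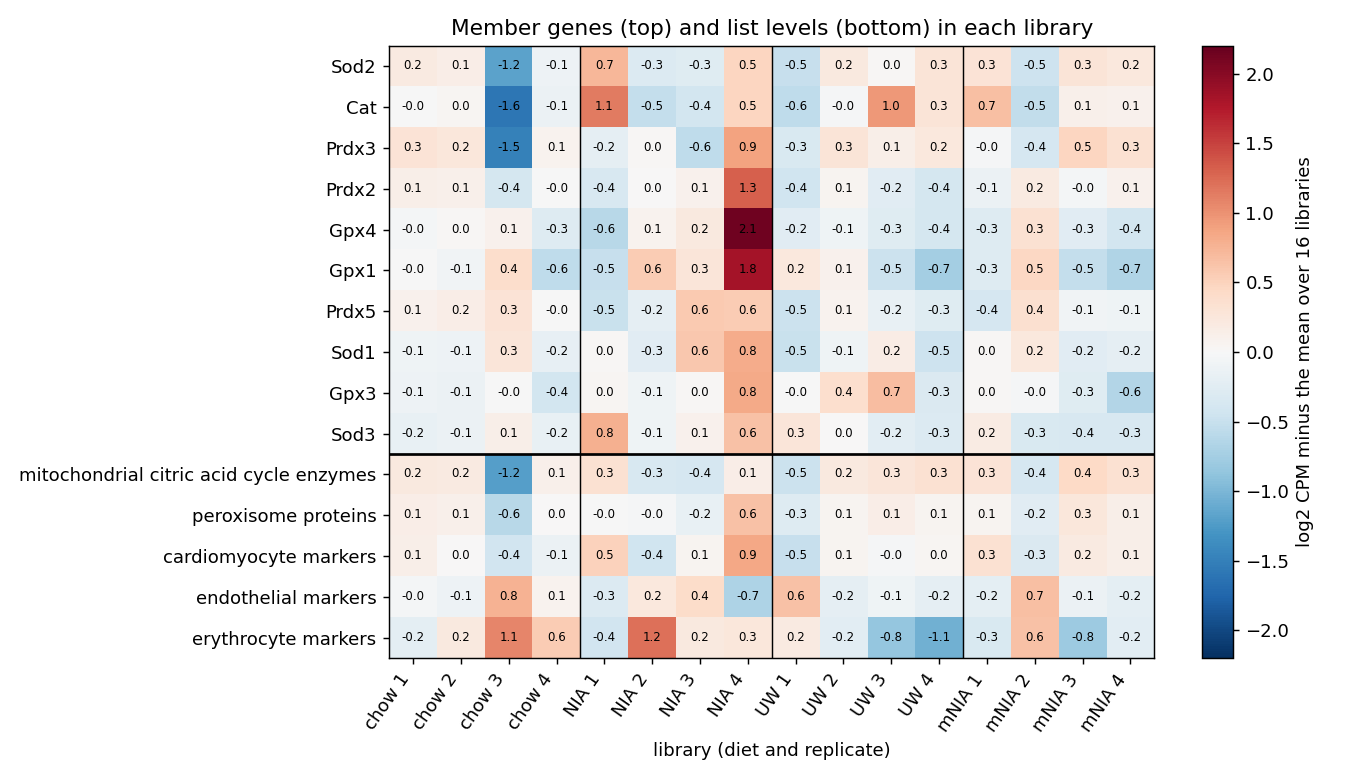
Log2 CPM of each member (top 10 lines) and level of 5 gene lists (bottom 5 lines) in each heart (x axis), as the difference from the mean over 16 libraries. Chow replicate 3 is low for Sod2, Cat, Prdx3 and the citric acid cycle enzymes, and NIA replicate 4 is high for Gpx4, Gpx1 and Prdx2.

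**Figure D5:**
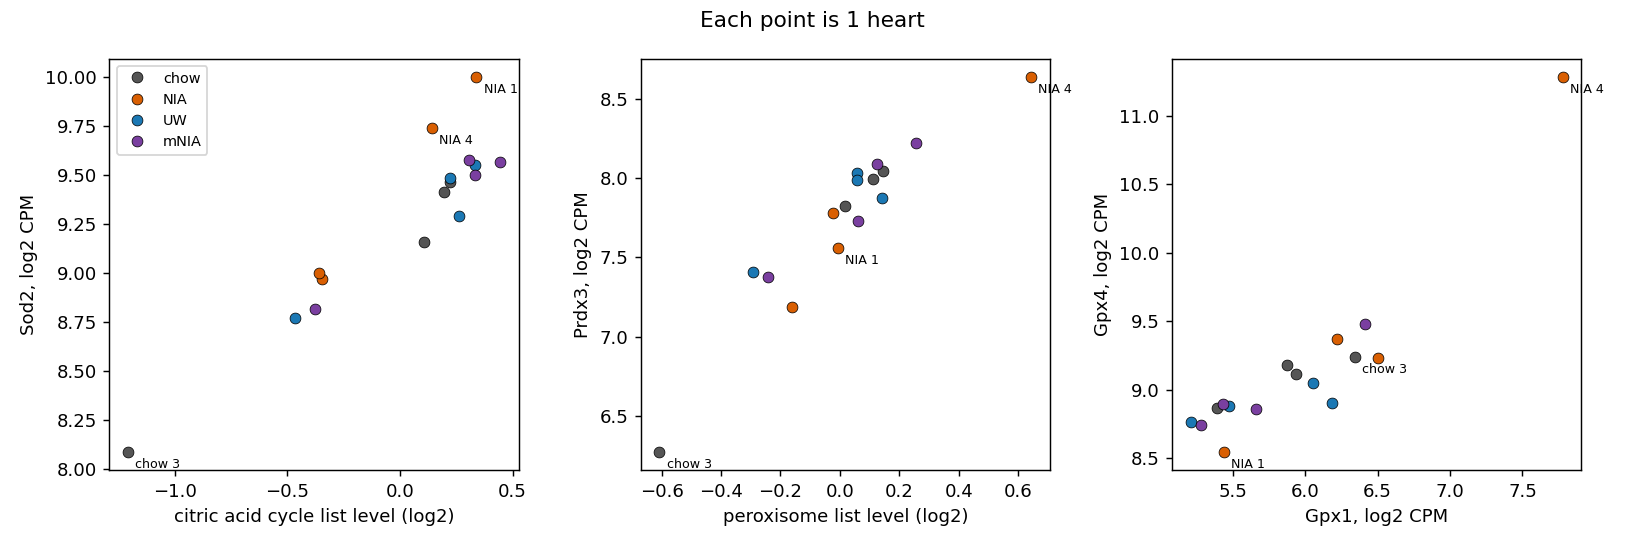
Sod2 against the citric acid cycle list level, Prdx3 against the peroxisome list level, and Gpx4 against Gpx1, each point being 1 heart and all axes in log2. Pearson's r over the 16 hearts is 0.93, 0.94 and 0.91 in turn.

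The genes whose pattern across the 16 hearts was most like that of each member, among the 9115 tested genes with a mean of at least 10 CPM, were named by Pearson's r of log2 CPM, as a description. All genes share the depth and length trends of the libraries, whose part in these values was not tested. For Sod2 they were Scp2 (0.98), a peroxisomal lipid carrier, and Rab3ip (0.98), and for Cat they were Cul1 (0.96) and Acadl (0.95), the long-chain acyl-CoA dehydrogenase of mitochondria. Prdx3 was most like Mat2b (0.98) and Ensa (0.97). Gpx1 was most like Rpl34-ps1 (0.97) and Rpl12 (0.97), and Gpx4 most like Rps3 (0.98), a ribosomal protein, and Ndufa7 (0.97), a subunit of respiratory complex I. Prdx2 was most like Myl3 (0.98), the ventricular light chain of myosin, and Atp5g1 (0.97), a subunit of ATP synthase. Sod1 was most like Hypk (0.95) and Ndufa13 (0.95), and Prdx5 most like D8Ertd738e (0.96) and Fam213b (0.95). The least matched members were Sod3, with Ssh1 (0.90) and Rbm47 (0.87), and Gpx3, with Cltb (0.83) and the metallothionein Mt1 (0.83).

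The rest of the scavenging system was read from 5 lists, of which 52 of 54 genes were tested and 0 passed adjustment with edgeR in any comparison. For the mean of the formulas minus chow 0 of 52 had an unadjusted p under 0.05 (2.19% of all tested genes), and in the joint test 6 of 52 did (6.88%). Of the related scavengers and partners (other peroxiredoxins and glutathione peroxidases, the Sod1 copper chaperone Ccs, sulfiredoxin and sestrins), 10 of 11 were tested, with a median log2 fold change of 0.01 for the mean of the formulas minus chow and 5 of 10 above 0. The 16 genes that supply thioredoxin, glutathione and NADPH had a median of 0.09 and 11 of 16 above 0. The 7 genes of selenocysteine synthesis and selenium supply had a median of -0.01 and 3 of 7 above 0. The sources of superoxide and peroxide, such as the NADPH oxidase subunits and monoamine oxidases, had a median of -0.09 and 3 of 10 above 0, and the 9 regulators, such as Nfe2l2, Keap1 and Ppargc1a, had a median of 0.05 and 7 of 9 above 0. Over all tested genes the median was 0.00 and 50.4% were above 0.

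The 4 genes of these lists with the smallest joint p were Foxo3, Pstk, Txn1 and Selenop. Each is given in its pair of diets with the smallest unadjusted p of the 6, so both choices lean to large differences. Foxo3 encodes a transcription factor known to act on the promoters of Sod2 and Cat, and had 11.1, 16.5, 3.14 and 6.42 CPM in chow, 11.7, 5.01, 2.84 and 2.84 in NIA, 11.9, 23.6, 16.9 and 30.1 in UW and 21.2, 5.36, 21.9 and 35.9 in mNIA hearts. Its mNIA minus NIA difference was 1.98 (SE 0.56, adjusted p 0.549). It rests on few counts in some hearts: 4 in NIA replicate 4, 17 in NIA replicate 3, 28 in NIA replicate 1 and 22 in mNIA replicate 2. The ranges overlapped, since mNIA replicate 2, at 5.36 CPM, lay below NIA replicate 1. It passed the threshold under limma-voom (2.32), where 14.8% of all genes passed, and without the 4 libraries of low weight (2.60), where 23.1% did.

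Pstk and Selenop belong to the selenium route that the glutathione peroxidases depend on: Pstk phosphorylates the serine on the selenocysteine transfer RNA, and Selenop carries selenium in plasma. Pstk had 36.9, 31.7, 27.9 and 134 CPM in NIA and 21.6, 26.3, 21.6 and 22.6 in UW, with UW minus NIA at -1.26 (SE 0.37, adjusted p 0.172), and -0.45 without NIA replicate 4. Selenop had 384, 361, 303 and 308 CPM in chow and 468, 507, 364 and 1630.1 in NIA, with NIA minus chow at 1.13 (SE 0.37, adjusted p 0.42), and 0.39 without NIA replicate 4. Txn1, the thioredoxin that recycles peroxiredoxins, had 60.0, 73.2, 74.0 and 173 CPM in NIA and 59.0, 61.3, 51.0 and 47.6 in UW, with UW minus NIA at -0.78 (SE 0.26, adjusted p 0.203), and -0.32 without that heart. As for Gpx4 and Prdx2, NIA replicate 4 was the highest of the 16 hearts for Pstk, Selenop and Txn1. By DESeq2, Pstk (adjusted p 0.0259) and Selenop (adjusted p 0.0468) passed the threshold in these comparisons, where 375 and 127 genes did.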

How the data were processed

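RNA from the ventricles of 16 mice was sequenced as stranded, poly-A selected libraries of 75-base single reads, per the labels' protocols. The authors deposited 1 table of expected counts per gene, of which between 13.0% and 52.4% of a library's values are not whole; the submitters' processing notes name BWA, DESeq2 and mm10, and the counting tool and gene models are not given in the sources used here. Values were rounded to whole counts and groups follow the sample titles. Genes were kept by filterByExpr with diet as group (13381 of 17737, 75.4%), scaled by TMM and fitted with edgeR 4.0.16 (R 4.3.3; robust quasi-likelihood, 1 mean per diet, all 16 libraries). Tests were 2-sided, Benjamini-Hochberg adjusted over all tested genes, with a threshold of 0.05. An SE was the size of the log2 fold change over the square root of its F statistic. The 95% intervals used this SE and a t quantile, so both are approximate. The fit was run on simulated counts with 1 dispersion for all genes, no length trend and no deviant library. That simulation cannot show how the test behaves with libraries such as NIA replicate 4. log2 CPM used a prior count of 2. Lengths, loci and coding sequences came from GENCODE vM21, and promoter windows from RefSeq (GRCm38.p6). Alternatives were other scalings (RLE, upper quartile), DESeq2 1.42.0, limma-voom 3.58.1 with quality weights, other filters, transcript length offsets (loess, span 0.5), a replicate block, leaving out each library, and leaving out the 4 libraries with weights under 0.5. Named genes are all 10 members, each in the mean of the formulas minus chow and in its pair with the smallest p; the 4 genes of the 5 pathway lists with the smallest joint p; and the 2 genes most like each member. The members and lists were chosen with earlier results of these data known. Same-numbered libraries of different diets did not regularly deviate together, so no pairing was assumed.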

Additional observations from a re-analysis of the deposited data

Results flagged for a closer look

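A heart was marked when its gap to the nearest other heart on its diet, as a share of the range of that diet's 4 hearts, exceeded Dixon's 95% limit for 4 values. For 1 group of independent values chance gives about 1 in 20. This held in 8 of the 40 groups of the 10 members and in 11 of 56 with the 4 supporting genes, which were picked by their joint p. The groups share the same libraries, so the 1 in 20 does not apply to these counts. Of the 11, 6 were in NIA replicate 4, the shallowest library.

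NIA replicate 4 was high for Gpx4 (2493 CPM, the other NIA hearts 374 to 662), Prdx2 (646 against 204 to 278), Gpx3 (421 against 220 to 244), Pstk (134 against 27.9 to 36.9), Txn1 (173 against 60.0 to 74.0) and Selenop (1630 against 364 to 507). Chow replicate 3 was low for Cat (103 against 282 to 316 CPM) and high for Sod3 (44.6 against 36.0 to 37.2). mNIA replicate 2 was low for Sod2 (451 against 723 to 762 CPM) and high for Gpx4 (712 against 428 to 476). mNIA replicate 1 was high for Sod3 (45.7 against 31.5 to 32.2 CPM). Of these 4 libraries, the 3 others than mNIA replicate 1 had limma-voom weights under 0.5. What sets them apart was not tested.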

How the results depend on the processing

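Of 600 values for single genes under other settings, 577 kept their direction and side of the threshold, 17 changed sign and 6 passed the threshold. For the mean of the formulas minus chow, the log2 fold changes that changed sign were Sod2 without the 4 libraries of low weight (-0.089), Gpx4 by limma-voom (-0.030) and without the 4 libraries (-0.061), Prdx2 (-0.12 and -0.17) and Prdx3 (-0.071 and -0.18). Leaving out each library gave -0.021 to 0.34 for Gpx1, -0.096 to 0.32 for Gpx4, -0.072 to 0.16 for Prdx2 and -0.084 to 0.33 for Prdx3. For NIA minus chow, Sod2 was -0.17 by limma-voom and -0.39 without the 4 libraries, and Cat -0.16 and -0.46. Prdx3 in mNIA minus chow was -0.067 to 0.35 leaving out each library. The cause was not tested.

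Members passing stayed at 0 except in mNIA minus NIA, with 1 by limma-voom and 1 without the 4 libraries (Gpx1). Counts over all genes moved more. DESeq2 called 127 in NIA minus chow, 1 in UW minus chow, 0 in mNIA minus chow, 375 in UW minus NIA, 3 in mNIA minus NIA, 1 in mNIA minus UW and 174 in the joint test. Limma-voom called 28, 1, 1, 916, 1979 and 1 in the same 6 pairs, 1980 in the joint test and 4 in the mean of the formulas minus chow. Without the 4 libraries the counts were 224 in NIA minus chow, 1 in UW minus chow, 0 in mNIA minus chow, 1627 in UW minus NIA, 3184 in mNIA minus NIA and 1374 jointly. Leaving out each library gave 0 to 116 in NIA minus chow and 0 to 217 in UW minus NIA, both highest without NIA replicate 2. It gave 0 to 1 in mNIA minus chow and in mNIA minus UW, and 0 to 110 jointly. The 1 gene of mNIA minus chow was also lost with upper-quartile scaling (0).

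With the replicate number as a replicate block, 0 genes and 0 members passed in every comparison. Same-numbered libraries correlated at -0.58 to 0.61 over 24 pairs, 9 of them over 0.1, and 4 of 16 libraries correlated best with their own number. No regular pairing by number was seen. With 4 animals per diet this cannot show whether same-numbered animals were handled together. Every member had at least 89 counts in each library, but the shallowest library, NIA replicate 4, moves many of these values. Other limits are the 4 animals per diet and the unsettled diet codes.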
